A study of Eutrema salsugineum with 2 samples.

Results

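On scaffold 15 of the Eutrema salsugineum genome, 6 neighbouring genes gave reads in the Shandong accession (SH) but not in the Yukon accession (YK). The genes were chosen by position on JGI scaffold 15, from base 4834225 to base 4874238, because all detected genes in that stretch had a YK count of 0. They are 6 of the 17888 genes with reads in at least 1 library. Their lack of YK reads is therefore the rule and not a finding. E. salsugineum is a salt-tolerant crucifer related to Arabidopsis thaliana, and SH and YK are accessions from Shandong and from the Yukon. Each accession was represented by 1 pyrosequencing library of polyadenylated RNA. The plants were 4 weeks old, well watered and under a 12-hour photoperiod, no treatment was applied, and whole rosettes were frozen halfway through the night. The labels describe SH as the accession with less biomass, thicker leaves and less drought tolerance, and YK as the opposite. The series' design gives 1 library from a pool of 5 plants per accession, while the extraction protocol describes 4 biological replicates of 5 plants. The table holds 1 column per accession.

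The libraries held 482275 SH reads and 431705 YK reads on genes, with 16220 genes detected in SH and 16245 detected in YK. With 1 library per accession no difference in the deposited counts has a replicate check, and intervals (95%, Clopper-Pearson) and floors cover counting error only. The limit taken for a gene without reads was 3 counts. It equals 6.95 RPM (reads scaled to 1000000 reads on genes) in YK and 6.22 RPM in SH. The median-of-ratios size factors were 1 and 1, so reads were compared as deposited. Reads were aligned to the SH genome and only unique alignments were counted, so transcripts missing from YK and YK transcripts that did not align uniquely to SH cannot be told apart here. Nor can fewer cells of a type and less RNA per cell in these whole rosettes. None of 5 leaf marker genes could be found by their A. thaliana hit in the annotation used, so the rosette label was not checked.

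As background, the proteins that these genes are predicted to encode belong to families with separate roles: folding of other proteins, remodelling of RNA, carbon metabolism and the photosynthetic membrane. The members are named below by their best A. thaliana hits, and the roles are those known in that species. The pair at the start of the block shares the hit AT4G20095, a protein of unknown function (DUF626). The following genes have hits to a DnaJ protein, a co-chaperone that stimulates Hsp70 (AT1G77020), and a DEAD-box RNA helicase, which remodels RNA (AT1G77030). After them come hits to AT1G77060 and to a PsbP-family protein, related to an extrinsic subunit of photosystem II (AT1G77090). The annotation places AT1G77060 in the phosphoenolpyruvate (PEP) carboxylase family, but the family look-up here grouped it with PEP mutase or isocitrate lyase like genes.

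The primers that the study used for quantitative PCR of the leading gene are shown because they mark the transcript that carries most reads of the block and were designed to match the SH reference at 1 place. They read 5′ to 3′, and no part is set off in capitals.
Thhalv10000285m.g forward: gggctgggtgtgattttcc
Thhalv10000285m.g reverse: agggcgagcgtggtacagt
Both primers are 19 bases long, with 57.9% G or C in the forward and 63.2% in the reverse primer.

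Most reads of the block came from the AT4G20095 pair, and within the pair from the first copy. The first, Thhalv10000285m.g (scaffold 15, 4834225 to 4836233), gave 179 SH reads and 0 YK reads. This was 371 RPM in SH (interval 319 to 430). By reads as deposited it was 59.7-fold above the floor of 3 counts that stands for the missing YK reads. Only 358 genes had more SH reads. The second, Thhalv10000284m.g (4855732 to 4857729), gave 18 SH reads and 0 YK reads, which is 37.3 RPM in SH (interval 22.1 to 59.0). By reads it was 6-fold above the floor. More SH reads than its 18 were found for 4107 genes. So the pair joins a gene among the well expressed SH transcripts and a gene of moderate level.

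The copies lie 19498 bp apart with no other detected gene between them, and the lengths of their loci, 2009 and 1998 bp, differ by 11 bp. In SH the first copy took 90.9% of the 197 reads of the pair (interval 85.9 to 94.5%). Per kb of locus the level was 89.1 reads in Thhalv10000285m.g and 9.01 in Thhalv10000284m.g, a ratio of 9.89 (interval 6.08 to 17.1). The ratio is larger than counting error within the SH library, which is the only library with reads of either. Reads that fit both copies equally well were not counted, so the division of reads between them is uncertain. Within the 1998 annotation rows used, no other gene had AT4G20095 as its best hit, and the remaining detected genes were not looked up.

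The other 4 genes stand in a tight row after the pair and together had 8 SH reads. Thhalv10000200m.g, with the DnaJ hit, from 4866369 to 4868200, gave 1 SH read and 0 YK reads. Thhalv10000296m.g, with the RNA helicase hit, from 4868670 to 4869591, likewise gave 1 and 0. Thhalv10000228m.g, with the hit AT1G77060, from 4870117 to 4871867, gave 5 SH reads and 0 YK reads, or 10.4 RPM in SH (interval 3.37 to 24.2). By reads it was only 1.67-fold above the floor, and its interval reaches below the YK floor of 6.95 RPM. Thhalv10000289m.g, with the PsbP-family hit, from 4872695 to 4874238, gave 1 SH read and 0 YK reads. The SH counts of 1 are below the floor of 3, so for these genes a lower level in YK was not detectable at this depth. The gaps between these genes were 469, 525 and 827 bp, against a median of 6.24 kb between neighbouring detected genes of scaffold 15. Such short gaps also lie just left of the block. They were 442 bp from Thhalv10000653m.g to Thhalv10000387m.g and 371 bp from there to Thhalv10000455m.g.

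**Figure D1:**
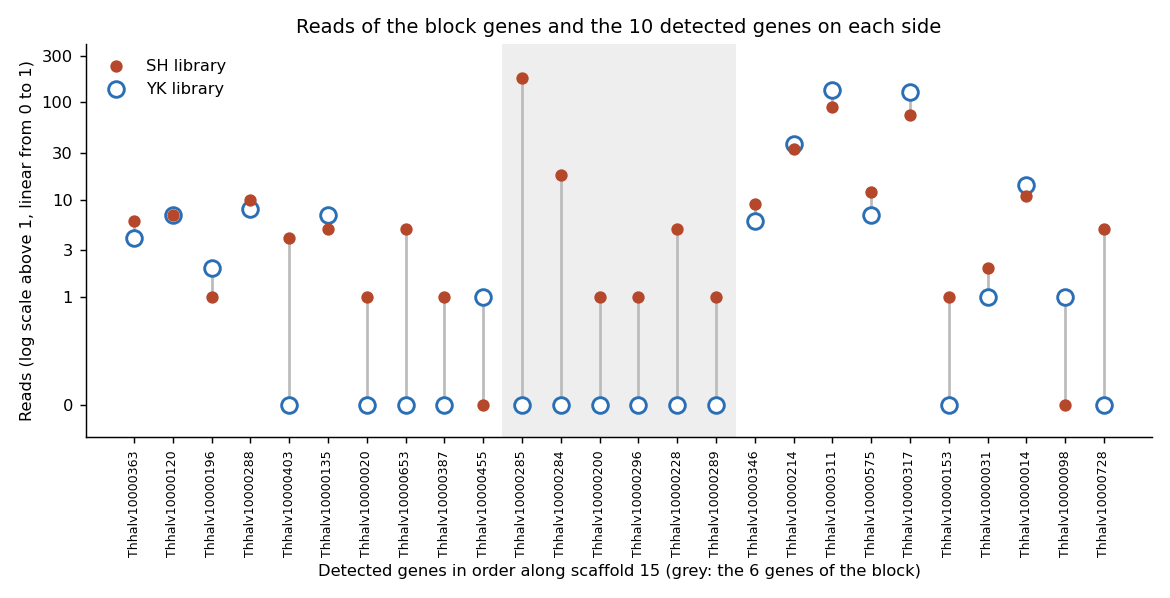
Reads in SH (filled) and YK (open) of the block genes (grey) and of the 10 detected genes on each side, in order along scaffold 15; the vertical axis is logarithmic above 1 and linear below, and each point is 1 library. All 6 block genes sit at 0 in YK, from 179 to 1 reads in SH, while 14 of the 20 flanking genes have YK reads, up to 133 in Thhalv10000311m.g. Of all 17888 detected genes, 16245 have YK reads.

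Together the block held 205 SH reads and 0 YK reads. This is 425 RPM in SH (interval 369 to 487), and by reads 68.3-fold above the floor of 3 counts. The leading gene alone gave 87.3% of these reads (interval 82.0 to 91.5%). Without it, 26 reads were left in SH, 8.67-fold above the floor. Of the 6 genes, 2 had at least 10 reads, 1 had 5 and 3 had a single read.

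Over all detected genes, 1643 of 17888, or 9.18%, had SH reads and no YK reads, which is the background for the 6 of 6 that the rule fixed. That share depends on how many reads a gene has. Of the 1726 genes with 1 read in all, 823 had it in SH, or 47.7% (interval 45.3 to 50.1%), and 3 members belong here. Of the 766 genes with 5 reads, 53 or 6.92% had none in YK (interval 5.23 to 8.95%), among them Thhalv10000228m.g. Of the 262 genes with 18 reads, 3 had none in YK, or 1.15% (interval 0.237 to 3.31%), among them Thhalv10000284m.g. Among the 1579 genes with 100 or more reads, 3 had no YK reads, or 0.190% (interval 0.0392 to 0.554%), and none lacked SH reads. Thhalv10000285m.g is 1 of these 3. The members thus range from a count of 1, at which reads in a single library are the only possible outcome, to a count at which they are rare.

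**Figure D2:**
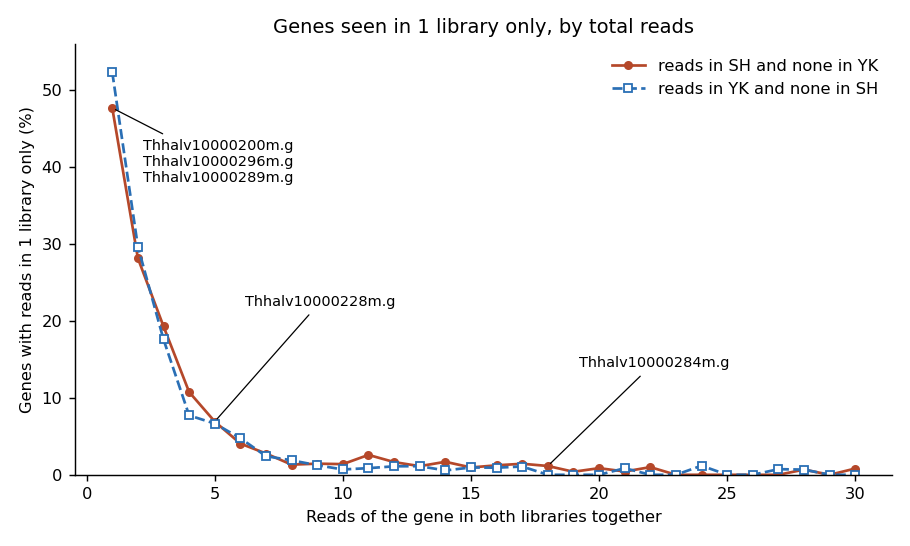
Share of genes (%) with reads in SH only (filled circles) and in YK only (open squares), by the reads of the gene in both libraries together, from 1 to 30. The labelled members sit at 47.7% (1 read), 6.92% (5 reads) and 1.15% (18 reads); Thhalv10000285m.g, with 179 reads, lies beyond the axis.

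The genes whose pattern was most like that of Thhalv10000285m.g, by the nearest SH count among genes without YK reads in these 2 libraries, were elsewhere. XLOC_017573, a locus outside the reference annotation on scaffold 4 from 3983368 to 3984225, had 246 SH reads and was the only gene with more. Next below came Thhalv10022943m.g on scaffold 11 with 148 and XLOC_020731 on scaffold 5 with 76. Their loci of 858, 858 and 897 bp are shorter than the 2009 bp of Thhalv10000285m.g. Genes of the members' families could be looked up only among the 1998 annotation rows used, out of 17888 detected genes, so most were out of reach. None of 10 listed PsbP-domain genes was among those rows. In the PEP mutase or isocitrate lyase like group, used for AT1G77060, 1 of 2 listed genes was found. It was Thhalv10001429m.g (hit AT2G43180), with 4 reads in SH and 6 in YK.

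The edges of the block are unlike each other. Just inside the left edge lies Thhalv10000285m.g, and just outside, 8.89 kb away, Thhalv10000455m.g (hit AT3G44780) with 0 reads in SH and 1 in YK. Just inside the right edge lies Thhalv10000289m.g, and just outside, after 59.8 kb without a detected gene, Thhalv10000346m.g (hit AT2G25060, an early nodulin-like protein) with 9 reads in SH and 6 in YK. Gaps of at least this length were found 28 times among the 376 of the scaffold. On the left, the single YK read divides the block from further genes with reads in SH only. These are Thhalv10000387m.g with 1 read and Thhalv10000653m.g with 5, which share the hit AT1G79350 (EMB1135), and Thhalv10000020m.g (hit AT2G25050) with 1 read. Counted from Thhalv10000020m.g to the right edge, 10 neighbouring detected genes held 212 SH reads and 1 YK read, and 9 of the 10 had no YK reads. Of these, 6 genes and 205 SH reads are those of the block, which the rule fixed. The next detected gene to the left, Thhalv10000135m.g, had 5 SH reads and 7 YK reads. The count thus depends on where it starts.

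The 5 nearest genes right of the block had reads in both libraries, 219 in SH and 312 in YK in sum. Their log2 ratios of YK to SH ran from -0.74 to 0.78. Thhalv10000214m.g, with a protein phosphatase 2C hit (AT2G25070), had 33 and 37 reads, a log2 ratio of 0.16 (interval -0.55 to 0.89). Thhalv10000311m.g, with a hit to the glutathione peroxidase gene GPX1 (AT2G25080), had 90 and 133 reads, a log2 ratio of 0.56 (interval 0.17 to 0.97). Thhalv10000317m.g, with a hit to SDF2 (AT2G25110), had 75 and 129 reads, a log2 ratio of 0.78 (interval 0.36 to 1.21). The ratios of GPX1 and SDF2 lie above 0 by more than counting error, in the direction opposite to the block.

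Over the 20 flanking genes, 14 had YK reads, and the summed reads were 278 in SH and 357 in YK. Of the 6 without YK reads, 4 were among the 10 genes on the left. Over all 17888 detected genes, 16245 had YK reads and 9.18% had none, a smaller share than in the flanks. Each of the 10036 genes holding 10 reads or more was tested by a two-sided exact binomial test of its YK reads against an equal share. A call needed a Benjamini-Hochberg p under 0.05 across those genes and a log2 ratio of 1 or more in size. It called 0 of the 10 flanking genes with enough reads, against 664 or 6.62% of all genes tested. At an unadjusted p under 0.05 there were 2, GPX1 (adjusted p = 0.0491 from the same exact test) and SDF2 (adjusted p = 0.00345), whose ratios were under the fold rule. Without that rule the test called these 2 of 10, against 990 or 9.86% of all genes tested. The exact test of edgeR with an assumed coefficient of variation of 0.4 called 0 of the 10, against 36 of all 10036 genes tested. With so few calls over all genes, 0 of 10 says little about the flanks. It gave 0 at an unadjusted p under 0.05. Shares over all genes at unadjusted p are not given here. The test compares 2 libraries and not the accessions.

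**Figure D3:**
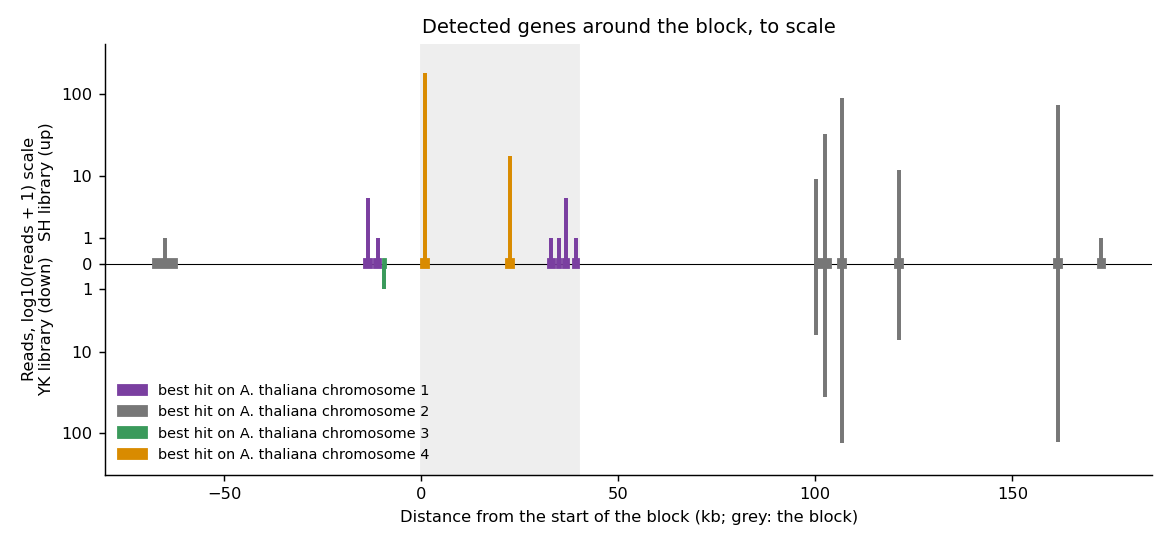
Detected genes from Thhalv10000020m.g to Thhalv10000153m.g, drawn to scale by their distance (kb) from the start of the block, which is grey; bars show reads in SH upward and in YK downward on a log10(reads + 1) scale, and colours give the A. thaliana chromosome of the best hit. The 9 genes with hits on chromosomes 1, 3 and 4 lie between genes with hits on chromosome 2; 6 of them are the block, chosen for 0 YK reads.

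The hits of the block differ from those of most of the scaffold and of the right flank, but not from those of its 3 nearest left neighbours. The rule set the block by position and YK reads, although it also names the AT4G20095 pair. Of the 371 other detected genes of scaffold 15, 357 had an A. thaliana hit, and 278 of these were on A. thaliana chromosome 2. The block had 4 hits on chromosome 1 and 2 on chromosome 4, and none on chromosome 2. Its right flank had 9 hits, all 9 on chromosome 2 and in rising order from AT2G25060 to AT2G25180. On the left the nearest chromosome 2 hit is AT2G25050. Between the genes with the neighbouring hits AT2G25050 and AT2G25060 lie 162 kb of scaffold and 9 detected genes, the 6 of the block and 3 to the left, and none of these 9 has a hit on chromosome 2. The 3 left genes, which the rule did not choose, held 6 SH reads and 1 YK read, too few to compare the libraries.

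The last 4 genes of the block follow the order of a single A. thaliana segment, AT1G77020, AT1G77030, AT1G77060 and AT1G77090. In Schrenkiella parvula, a salt-tolerant relative, their hits are Tp5g32180, Tp5g32190, Tp5g32200 and Tp5g32210, which are numbered in an unbroken row. Such adjacent numbers are common on the scaffold, with 122 of 288 other neighbouring pairs (42.4%), against 3 of 5 pairs in the block. The S. parvula group differs: all 6 block genes hit Tp5g IDs, as did 12 of 326 other genes of the scaffold (3.68%), most of which (263) hit Tp4g. The left gene Thhalv10000020m.g also hit a Tp5g ID, Tp5g28550, although its A. thaliana hit is on chromosome 2. These shares are descriptions across genes of 1 scaffold, and neighbouring genes are not independent.

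Most other genes of the scaffold with a Tp5g hit had YK reads. Of the 12 other genes, 3 lie in the stretch to the left and had no YK reads. The remaining 9, elsewhere on scaffold 15, all had YK reads, with 627 reads in SH and 1682 in YK in sum. Most of these came from Thhalv10000535m.g (hit AT5G44420, plant defensin 1.2A) with 519 and 1169 reads. Thhalv10000662m.g, with the same hit, added 46 and 429. Thhalv10000062m.g, Thhalv10000547m.g, Thhalv10000018m.g and Thhalv10000377m.g each had 1 YK read, too few to tell their level in YK. Over the scaffold outside the block, 49 of 371 genes, or 13.2%, had no YK reads and 40 had no SH reads. The share without YK reads was 10.4% of the 278 genes with a chromosome 2 hit and 16.5% of the 79 with a hit on another chromosome; this difference was not tested.

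Along all scaffolds there were 1442 runs of neighbouring detected genes without YK reads, of which 1282 were a single gene. Since the block was chosen for its YK counts of 0, its place among these runs is a description and no support for it. A longer run, of 8 genes on scaffold 8, had 151 SH reads over 93.1 kb, against 205 reads over 40014 bp in the block. The leading gene of that run had 53 reads, or 35.1% (interval 27.5 to 43.3%), against 87.3% in the block. Each leading gene was picked as the largest of its run, so these shares are a description and were not tested. Without SH reads there were 1495 runs, the longest of 5 genes with 13 reads.

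**Figure D4:**
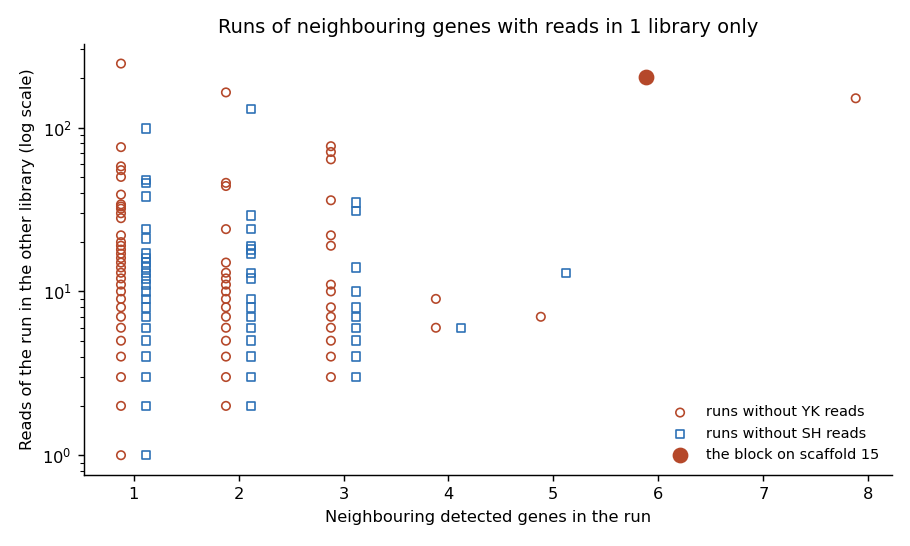
Runs of neighbouring detected genes with reads in a single library, by the number of genes in the run and its summed reads (log scale), without YK reads (circles) and without SH reads (squares); runs of equal length and reads share a point. The block (filled) has 6 genes and 205 reads, and the run of 8 genes at 151 reads is on scaffold 8.

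Counting only genes with at least 2 reads shortened the run around the block to 4 genes, 3 of the members and the left neighbour Thhalv10000653m.g. Thhalv10000285m.g, Thhalv10000284m.g and Thhalv10000228m.g kept their place, and the single YK read at Thhalv10000455m.g then no longer divided the row. The single-read members add 3 of the 205 reads.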

How the data were processed

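Reads per gene were measured in 1 library each of SH and YK. The authors trimmed the reads (quality 12, length 50 bp), aligned them to the JGI genome of SH (Phytozome v9.1) and counted unique alignments without strand with HTSeq v0.5.4p5; GSNAP v2012-11-27, Cufflinks and bedtools v2.17.0 are named in the submitters' processing notes. The deposited counts are raw reads. The deposited positions are of other kinds of value and were used as given. The deposited fold ratios and p-values are the authors' own comparison (DESeq v1.14.0) and were not used. A blank row (1) was left out.

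Best hits came from 1998 annotation rows of the study, which cover 373 of the 377 detected scaffold 15 genes; a RefSeq gene table was not used, since its build was not shown to be the same, so annotated genes without reads were not analysed here. Members and lists were chosen with earlier results of these data known.

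RPM are reads scaled to 1000000 reads on genes, and levels between genes are reads per kb of locus, introns included. Exact binomial tests and Clopper-Pearson intervals used scipy 1.17.1 and Benjamini-Hochberg adjustment, with 0.5 reads added for log2 ratios; edgeR 4.0.16 gave TMM scaling and an exact test. The exact binomial test was tested on simulated data that held counting error only, which does not cover spread between libraries. Named genes are the 6 members, 10 detected neighbours per side, genes with the members' hits or families, and the genes nearest to the leading member in SH reads (up to 2 per direction; 1 exists above). The defensin-hit genes and the Tp5g-hit genes with 1 YK read were named after their values were seen.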

Additional observations from a re-analysis of the deposited data

How the results depend on the processing

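Alternatives were other scalings, other minimum reads, no fold rule, an assumed spread, annotated genes alone, and, added after the data were seen, the block without its leading gene. The fold of the block's SH reads over the floor fell from 68.3 to 8.67 without Thhalv10000285m.g. With the exact upper limit of 3.69 counts for a count of 0 in place of the floor, the fold of the whole block was 55.6. The SH level of the block was 425 RPM, and 489 RPM when the 5 most abundant genes were left out of the total. The share of genes with reads only in SH was 9.18% over all detected genes, 1.96% over genes with at least 4 reads and 0.747% over those with at least 10. Without a fold rule 2 of 10 flanking genes were called, GPX1 and SDF2, instead of 0, and 990 of all 10036 genes tested (9.86%). Over all genes, 36 genes were called instead of 664 when edgeR tested the reads at a coefficient of variation set to 0.4. With total reads as the scaling 748 were called, 310 with more reads in SH and 438 in YK, against 389 and 275 with the main scaling. That scaling adds 0.16 to each log2 ratio in favour of YK. Among results with no change past these limits were the share of the first copy in its pair (90.8% per kb) and the length of the run among annotated genes alone (6 genes). Depth limits the single-read members most: 3 of the 6 genes rest on 1 read. No paired analysis was possible because each accession has 1 library.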
